A study of Mus musculus with 8 samples.

Results

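The inflammasome and interleukin 1 axis was described through 10 listed genes, all of which were measured, out of 18820 genes on the arrays. They are the ligands *Il1a*, *Il1b* and *Il18*, the receptor antagonist *Il1rn*, the receptors *Il1r1* and *Il1r2*, the sensors *Nlrp3* and *Aim2*, the adaptor *Pycard* and the protease *Casp1*. Each gene was represented by a single probe set, and *Il1a* lies next to *Il1b* on chromosome 2, and *Il1r2* next to *Il1r1* on chromosome 1, in the gene order of GRCm38.p6. RNA came from epididymal white adipose tissue of male C57BL/6 mice aged 24 to 26 weeks that had received a semi-synthetic low-fat diet (LFD) for 16 weeks, 4 *Sucnr1*-/- and 4 WT mice with 1 array each. In *Sucnr1*-/- mice a cassette with lacZ and neo replaced much of the coding exon of the succinate receptor gene in all cells of the body, and WT mice came from the same heterozygous intercross. Values are log2 expression after robust multi-array average (RMA), so a difference of 1 is a doubling on that scale, and each difference is *Sucnr1*-/- minus WT.

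Inflammasomes are cytosolic platforms in which a sensor such as NLRP3 or AIM2 recruits the adaptor ASC, the product of *Pycard*, which in turn gathers caspase-1. Active caspase-1 cuts the precursors of IL-1β and IL-18 into their mature forms, whereas IL-1α is active without this cut. IL-1α and IL-1β signal through IL1R1, IL1RN occupies the same receptor without signalling, and IL1R2 is a decoy. Macrophages and other leucocytes are the usual source of these cytokines in fat, where IL-1β is known to blunt insulin signalling in adipocytes. The succinate receptor has been linked to this axis because succinate accumulates in stimulated macrophages.

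*Sucnr1* lay at 6.02, 6.05, 5.41 and 7.11 in the *Sucnr1*-/- mice and at 8.68, 8.97, 9.38 and 9.78 in the WT mice, with no overlap. Its difference was −3.05 (SE 0.36, limma, adjusted p = 0.321), so with 4 mice per genotype not even the deleted gene passed over all genes, and the two-sided exact permutation p was 0.0286. Adipocyte markers (9 of 9 measured, such as *Adipoq* and *Plin1*) had a mean level of 13.06 to 13.12 in *Sucnr1*-/- mice and 12.86 to 13.11 in WT mice, whereas markers of epididymis were at 4.29 to 4.36 in *Sucnr1*-/- mice and 4.23 to 4.71 in WT mice. Across all genes 0 of 18820 (0.0%) passed limma at an adjusted p under 0.05, and 1284 (6.82%) had an unadjusted p under 0.05, of which 632 (3.36%) were lower and 652 (3.46%) higher in *Sucnr1*-/- mice. This split was 330 lower and 1352 higher with arrays centred on their median, and 465 lower and 838 higher after quantile normalization. Replicate 1 of each genotype is named often because these mice stood highest for most of the cytokine genes. They also lay at one end of the axis of largest variation over all genes (first principal component, 38.5% of the variance). On it WT replicate 1 was at −39.14 and *Sucnr1*-/- replicate 1 at −17.84, against −4.02 to 24.94 in the other mice. WT replicate 1 also had the lowest array weight, 0.454, so their standing apart is not particular to the cytokine genes.

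All 10 genes had a lower mean in *Sucnr1*-/- mice, as did 46.8% of all genes, and their median difference was −0.35 against 0.01 over all genes. All 10 were also lower under both of those scalings. None passed limma over all genes (lowest adjusted p = 0.712, for *Pycard* and *Casp1*), and 2, again *Pycard* and *Casp1*, had an unadjusted p under 0.05. The count of lower means was 7 without WT replicate 1, without *Sucnr1*-/- replicate 2 or without *Sucnr1*-/- replicate 4, with *Il1b*, *Il1r1* and *Il1r2* above 0 each time. The members split by how far they varied between mice of the same genotype. For *Il1a*, *Il1b*, *Il1rn*, *Il1r1*, *Il1r2* and *Nlrp3* the highest and lowest of the 8 mice were 1.70 to 4.39 log2 units apart, while *Il18*, *Aim2*, *Pycard* and *Casp1* spanned 0.69 to 1.17. The median span over all genes was 0.41.

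**Figure D1:**
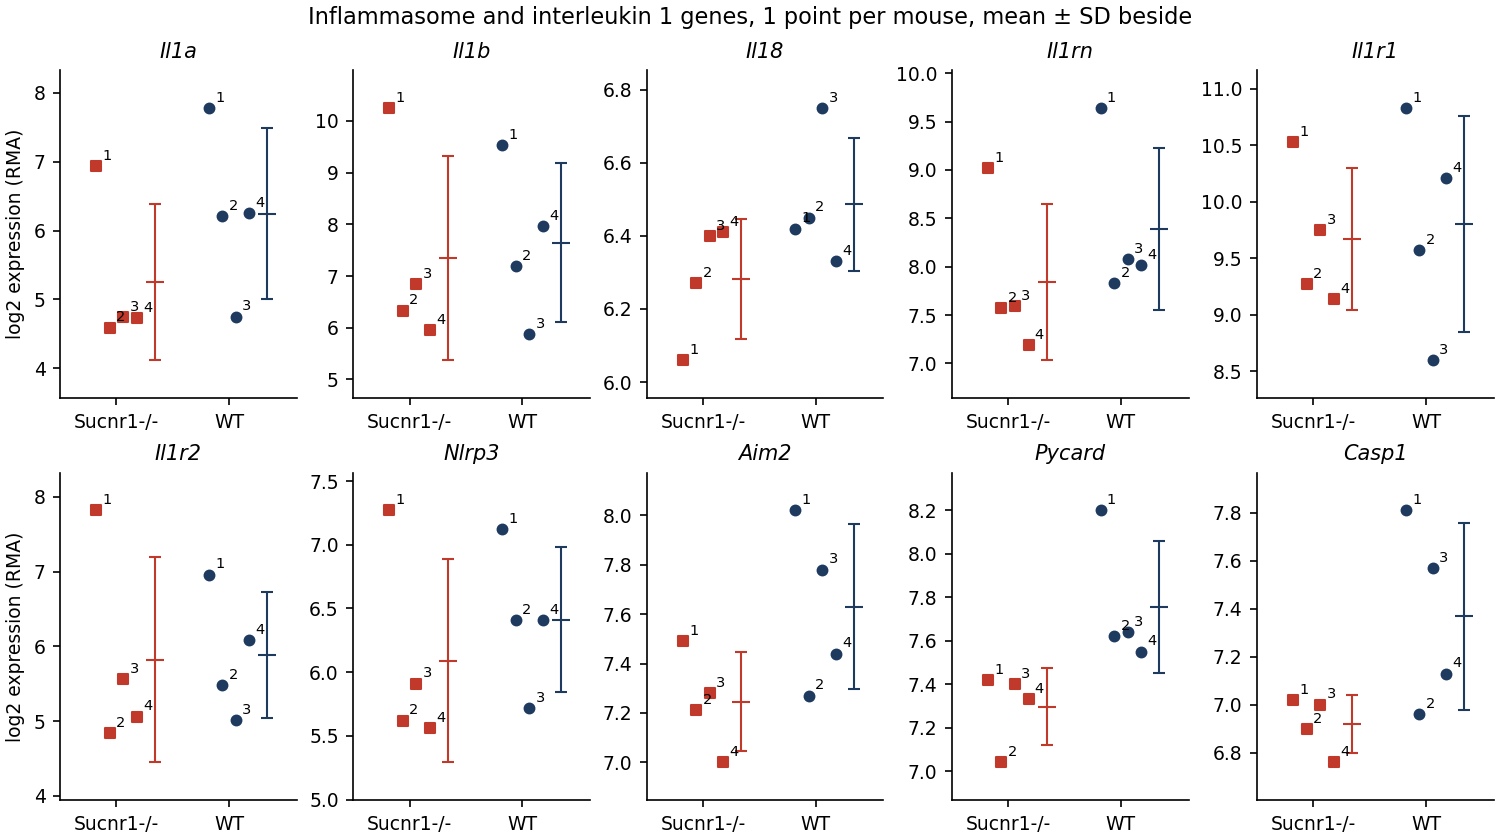
Log2 expression (RMA, vertical axis, scaled separately for each gene) of the 10 genes, with *Sucnr1*-/- mice as red squares and WT mice as blue circles, the digit giving the replicate and the bar the mean and SD (n = 4). Replicate 1 of both genotypes stands above the other mice for *Il1a*, *Il1b*, *Il1rn*, *Il1r1*, *Il1r2* and *Nlrp3*, and the genotypes are fully separate for *Pycard* alone.

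Among the ligands, *Il1b*, the main secreted product of the inflammasome, varied most of all 10 genes. It was at 10.25, 6.33, 6.85 and 5.96 in *Sucnr1*-/- mice, against 9.54, 7.19, 5.87 and 7.97 in WT mice. The highest value belonged to a *Sucnr1*-/- mouse and the lowest to a WT mouse, 20.9-fold apart, and the groups overlapped throughout. Its mean was 7.35 ± 1.97 in *Sucnr1*-/- mice and 7.64 ± 1.54 in WT mice (SD, n = 4 each). The difference of −0.30 (SE 1.04, limma, adjusted p = 0.949) had a 95% interval of −2.67 to 2.07, so a change of several fold in either direction lies within it. Without *Sucnr1*-/- replicate 1 the difference was −1.27 and without WT replicate 1 it was 0.34. The spread within a genotype, an SD of 1.77, was larger than that of 99.9% of all genes.

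*Il1a*, whose product also serves as an alarm signal of damaged cells, lay at 6.94, 4.59, 4.74 and 4.73 in *Sucnr1*-/- mice and at 7.78, 6.21, 4.75 and 6.25 in WT mice. Apart from replicate 1, the *Sucnr1*-/- mice lay just below the lowest WT mouse, at 4.59 to 4.74 against 4.75. The share of all genes apart in this way was not computed. Values this dim lie near the mean level of the epididymis markers, so whether *Il1a* was detected in these mice is not known. Its difference of −0.998 (SE 0.70, limma, adjusted p = 0.753) was the largest of the 10 genes and had a 95% interval of −2.59 to 0.59. Without *Sucnr1*-/- replicate 1 it was −1.56 and without WT replicate 1 it was −0.49. With replicate 1 of both genotypes left out it was −1.05 (unadjusted p = 0.0275, limma, adjusted p = 0.634). These mice held the 2 highest values of *Il1a*, so leaving them out narrows the spread, and the p is no separate support. *Il18*, which many tissues express without stimulation, ranged from 6.06 to 6.41 in *Sucnr1*-/- mice and from 6.33 to 6.75 in WT mice. Here *Sucnr1*-/- replicate 1 was the lowest of the 8 mice, unlike for the other ligands, and the difference was −0.20 (SE 0.11, limma, adjusted p = 0.729, 95% interval −0.46 to 0.05). Without *Sucnr1*-/- replicate 1 it was −0.13 and without WT replicate 3 it was −0.12.

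The sequences just before the start sites of *Il1a* and *Il1b* are shown because these neighbouring ligand genes varied together from mouse to mouse. Each is the 250 bases before the start (RefSeq, GRCm38.p6), read 5′ to 3′ on the gene's strand, with matches to the searched letters in capitals. Both strands were searched for TATAAA, the letters of a core promoter box that positions the polymerase. They were also searched for GAGGAA, the core bound by the myeloid factor PU.1. An NF-κB outline was taken as GGG followed, after any 5 bases, by CC. An interferon response element was taken as GAAA repeated after any 2 bases.
Il1a (chr2:129309973-129310222, minus strand): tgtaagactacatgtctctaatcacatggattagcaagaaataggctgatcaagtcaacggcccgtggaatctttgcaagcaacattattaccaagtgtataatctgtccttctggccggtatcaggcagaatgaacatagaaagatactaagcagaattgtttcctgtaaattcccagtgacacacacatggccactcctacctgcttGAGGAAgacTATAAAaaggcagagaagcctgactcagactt
Il1b (chr2:129371140-129371389, minus strand): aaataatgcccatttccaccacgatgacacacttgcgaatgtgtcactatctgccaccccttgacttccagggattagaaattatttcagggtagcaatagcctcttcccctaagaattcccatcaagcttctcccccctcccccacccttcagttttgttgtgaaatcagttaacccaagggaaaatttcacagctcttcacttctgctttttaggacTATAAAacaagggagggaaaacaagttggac
Counted from the start site, TATAAA stood at −32 to −27 in *Il1a* and at −31 to −26 in *Il1b*, and the GAGGAA of *Il1a* at −41 to −36, without overlap. TATAAA was in 12.4% of all 32851 windows of this length in the table, and in 3 of the 14 windows of the 10 genes, those of *Il1a*, *Il1b* and *Il18*. In *Il18* the match was on the opposite strand and farther from the start, at −175 to −170. GAGGAA was in 23.3% of all windows and in 5 of the 14, of 5 genes (*Il1a*, *Aim2*, *Nlrp3*, *Pycard* and *Casp1*). The NF-κB outline was in 45.8% of all windows and in 5 of the 14, of 4 genes (*Casp1*, *Il1r1*, *Il1rn* and *Nlrp3*). The interferon element was in 2.98% of all windows and in 0 of the 14 windows of the 10 genes, some of which have several start sites. A match describes the letters and is not a shown binding site.

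*Il1rn*, which encodes the antagonist that blocks IL-1 at its receptor, lay at 9.02, 7.57, 7.59 and 7.19 in *Sucnr1*-/- mice and at 9.64, 7.83, 8.08 and 8.02 in WT mice. Replicate 1 stood more than a log2 unit above the other 3 mice in both genotypes. Among those others the *Sucnr1*-/- mice lay below the WT mice, but how many of all genes do so was not counted. The difference was −0.55 (SE 0.49, limma, adjusted p = 0.784, 95% interval −1.66 to 0.56). Without *Sucnr1*-/- replicate 1 it was −0.94, without WT replicate 1 it was −0.13, and with replicate 1 of both genotypes left out −0.53 (unadjusted p = 0.00507, limma, adjusted p = 0.616). The mice left out held the 2 highest values of *Il1rn*, which narrows the spread, so this p is no separate support.

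The receptors gave the smallest differences of the 10 genes. *Il1r1*, the signalling receptor, ranged from 9.14 to 10.53 in *Sucnr1*-/- mice and from 8.60 to 10.83 in WT mice, and both the highest and the lowest mouse were WT. Its difference was −0.13 (SE 0.48, limma, adjusted p = 0.952, 95% interval −1.22 to 0.96). *Il1r2*, the decoy receptor, which neutrophils carry in abundance, lay at 7.82, 4.84, 5.56 and 5.06 in *Sucnr1*-/- mice and at 6.96, 5.48, 5.01 and 6.08 in WT mice. As for *Il1b*, *Sucnr1*-/- replicate 1 was highest and WT replicate 1 next. In *Sucnr1*-/- replicates 2 and 4 and WT replicate 3 *Il1r2* was dim, at 4.84 to 5.06, and whether it was detected is not known. Its difference was −0.06 (SE 0.67, limma, adjusted p = 0.986, 95% interval −1.59 to 1.47), with a sign that turned when single mice were left out.

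The sensors differed in how their values fell among the mice. *Nlrp3*, the sensor of membrane damage and crystals that usually needs a priming signal, lay at 7.27, 5.62, 5.91 and 5.56 in *Sucnr1*-/- mice and at 7.12, 6.41, 5.72 and 6.41 in WT mice, following the order of *Il1b* closely. Its difference was −0.32 (SE 0.41, limma, adjusted p = 0.844, 95% interval −1.26 to 0.61). Without *Sucnr1*-/- replicate 1 it was −0.72 (unadjusted p = 0.0379, limma, adjusted p = 0.561) and without WT replicate 1 it was −0.09. *Sucnr1*-/- replicate 1 held the highest value of *Nlrp3*, so leaving it out narrows the spread, and the p is no separate support. Without this mouse 4.7% of all genes were lower at an unadjusted limma p under 0.05. *Aim2*, the sensor of cytosolic DNA, lay at 7.49, 7.21, 7.28 and 7.0 in *Sucnr1*-/- mice and at 8.02, 7.27, 7.78 and 7.44 in WT mice. WT replicates 1 and 3 stood above all *Sucnr1*-/- mice, and WT replicates 2 and 4 among them. The difference was −0.38 (SE 0.17, limma, unadjusted p = 0.0517, adjusted p = 0.719, 95% interval −0.77 to 0.004). Without WT replicate 1 it was −0.25.

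*Pycard* was the only one of the 10 genes whose genotypes did not overlap. It lay at 7.42, 7.04, 7.40 and 7.33 in *Sucnr1*-/- mice, against 8.20, 7.62, 7.64 and 7.55 in WT mice. The highest *Sucnr1*-/- mouse was at 7.42 and the lowest WT mouse at 7.55. With arrays centred on their median these bounds were 7.43 in *Sucnr1*-/- mice and 7.51 in WT mice, and after quantile normalization 7.43 in *Sucnr1*-/- mice and 7.5 in WT mice, so the groups stayed apart. Over all genes 1.87% had every *Sucnr1*-/- mouse below every WT mouse, and 2.37% the opposite. The difference was −0.46 (SE 0.15, limma, unadjusted p = 0.0159, adjusted p = 0.712, 95% interval −0.81 to −0.11). An exact permutation of genotype (two-sided) returned p = 0.0286, which is the lowest value possible with 8 mice split evenly. Without WT replicate 1 the difference was −0.31 (unadjusted p = 0.0162, limma, adjusted p = 0.852).

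*Casp1* lay at 7.02, 6.90, 7.0 and 6.76 in *Sucnr1*-/- mice and at 7.81, 6.96, 7.57 and 7.13 in WT mice. The *Sucnr1*-/- mice were close together (SD 0.12), the WT mice less so (SD 0.39), and WT replicate 2 lay among the *Sucnr1*-/- mice. The difference was −0.45 (SE 0.18, limma, unadjusted p = 0.033, adjusted p = 0.712, 95% interval −0.85 to −0.05), and the two-sided exact permutation p was 0.0857. Under the methods' t-test over all genes *Casp1* had an unadjusted p of 0.0707. Without WT replicate 1 the difference was −0.30 (unadjusted p = 0.072, limma, adjusted p = 0.852), and without WT replicate 3, *Sucnr1*-/- replicate 2 or *Sucnr1*-/- replicate 4 the unadjusted limma p was 0.0646 to 0.0845. The regions before the start sites of this pair, the adaptor and its protease, are shown because in the fit over all 8 mice they were the 2 genes with an interval that excluded 0.
Pycard (chr7:127993868-127994117, minus strand): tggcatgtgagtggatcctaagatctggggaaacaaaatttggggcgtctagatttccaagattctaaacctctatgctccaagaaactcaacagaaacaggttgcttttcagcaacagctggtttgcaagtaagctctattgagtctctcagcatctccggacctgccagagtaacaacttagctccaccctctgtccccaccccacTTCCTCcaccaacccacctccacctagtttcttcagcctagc
Casp1 (chr9:5298267-5298516, plus strand): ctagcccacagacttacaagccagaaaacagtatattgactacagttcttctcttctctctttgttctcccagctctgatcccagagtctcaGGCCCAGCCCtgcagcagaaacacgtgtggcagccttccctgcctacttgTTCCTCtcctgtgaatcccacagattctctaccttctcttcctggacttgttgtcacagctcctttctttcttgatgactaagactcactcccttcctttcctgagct
Capitals again mark the searched letters, here GAGGAA read on the opposite strand in both genes, at −42 to −37 from the start in *Pycard* and −108 to −103 in *Casp1*, and a match of *Casp1* to the NF-κB outline on the opposite strand, at −158 to −149. Neither window held TATAAA.

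**Figure D2:**
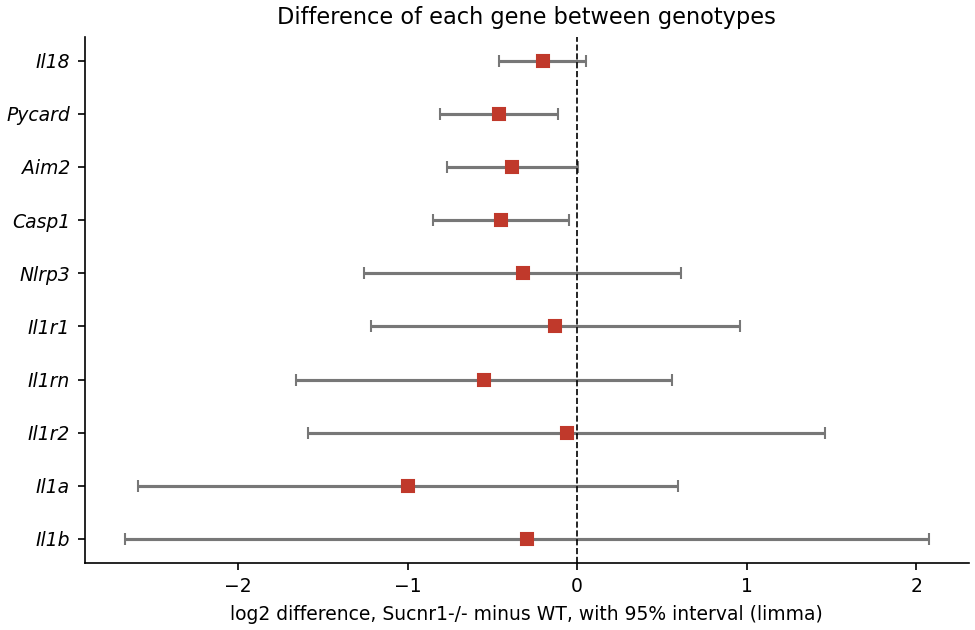
Log2 difference between *Sucnr1*-/- and WT mice (horizontal axis) for the 10 genes, with 95% intervals from limma, 4 mice per genotype, ordered by standard error. All points lie below 0, the intervals of *Pycard* (−0.81 to −0.11) and *Casp1* (−0.85 to −0.05) exclude 0 before adjustment, and that of *Il1b* is the widest.

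Many of the 10 genes moved together from mouse to mouse, and the sets below were formed from these same values. Of 45 pairs, 18 passed for Pearson's r and 11 for Spearman's rho over the 8 mice (exact permutation over 40320 pairings, adjusted over the 45 pairs). Replicate 1 of both genotypes held the 2 highest values for 6 genes, *Il1a*, *Il1b*, *Il1rn*, *Il1r1*, *Il1r2* and *Nlrp3*, a pattern seen in 7.51% of all genes. Among these 6 genes, grouped after their values were seen, r ran from 0.75 to 0.98 and 14 of 15 pairs passed. *Il1b* and *Nlrp3* had r = 0.98 (exact permutation p = 0.000198, adjusted p = 0.00409) and rho = 0.91 (exact permutation p = 0.00456, adjusted p = 0.0228). *Il1b* and *Il1r2* had r = 0.98 (exact permutation p = 0.000273, adjusted p = 0.00409) and rho = 0.91 (exact permutation p = 0.00456, adjusted p = 0.0228).

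*Aim2*, *Pycard* and *Casp1* made up the other set, also grouped after their values were seen, with r of 0.82 to 0.97. High r within a set and few passing pairs between sets follow in part from this grouping. *Aim2* and *Casp1* had r = 0.97 (exact permutation p = 0.000174, adjusted p = 0.00409) and rho = 0.98 (exact permutation p = 0.000397, adjusted p = 0.0171). Both were highest in WT replicates 1 and 3, where *Il1b* was high in the first and lowest of all mice in the other. Between the sets 1 of 18 pairs passed by r. This was *Il1rn* with *Aim2*, with r = 0.85 (exact permutation p = 0.0102, adjusted p = 0.0307) and rho = 0.95 (exact permutation p = 0.00114, adjusted p = 0.0171). By rho *Il1rn* with *Casp1* passed as well (rho = 0.905, exact permutation adjusted p = 0.0228). Within the second set *Aim2* with *Pycard* and *Pycard* with *Casp1* did not pass by rho (exact permutation adjusted p = 0.0577 and 0.0532). For *Il18* 0 of 9 pairs passed over the values as deposited, and its r with the first set was −0.62 to −0.21.

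After the 2 mice farthest from the median of the first gene were left out, 0 of the 45 pairs passed. With 6 mice the smallest p over the 720 pairings is 0.00139, which 45 pairs bring to 0.0625 for a single pair, so lost calls alone say little and the size of r is given instead. For *Il1b* these were the replicate 1 mice, and r was then 0.91 with *Nlrp3* (exact permutation p = 0.0111, adjusted p = 0.0982) and 0.92 with *Il1r2* (exact permutation p = 0.0153, adjusted p = 0.0982). The lowest r in this set were those of *Il1rn*, at 0.10 to 0.57 with the other 5 genes once the replicate 1 mice were left out, so its high r over all 8 mice rests on these. For *Aim2* they were WT replicates 1 and 3, and r with *Casp1* was then 0.91 (exact permutation p = 0.0153, adjusted p = 0.0982). With *Pycard* the r of *Aim2* was then 0.41. Pairs between the sets ran from −0.095 to 0.94 with 2 mice left out, *Il1r1* with *Aim2* highest. *Il1rn* reached 0.89 with *Aim2* and 0.83 with *Casp1*, above its r with the first set, so the sets are not sharply apart. With the mean of each genotype subtracted 19 pairs passed, 14 of them among the 18 above. Here the shuffle ran over all 8 mice, although the values of each genotype then sum to 0. These permutation p-values are therefore approximate and may be too small. The 4 pairs lost were *Aim2* with *Pycard* (r = 0.68, permutation adjusted p = 0.101), *Pycard* with *Casp1* (r = 0.70, permutation adjusted p = 0.0959), and *Il1rn* with *Il1a* and with *Nlrp3*. No pair of *Pycard* passed then. The 5 gained were *Il1rn* with *Il1r1* and 4 pairs of *Il18*. For *Il18* r was −0.80 with *Il1a*, −0.81 with *Il1b*, −0.81 with *Il1r1* and −0.79 with *Nlrp3* (permutation adjusted p = 0.0472 each). In the deposited values with 2 mice left out, r of *Il18* was −0.16 with *Il1a* and −0.455 with *Il1b*. It was 0.22 with *Il1r1* and 0.42 with *Nlrp3*. *Sucnr1*-/- replicate 1, lowest for *Il18*, was left out each time, so the negative r depends on the mice left out. Each genotype alone has only 4 mice, so no r is given within it.

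**Figure D3:**
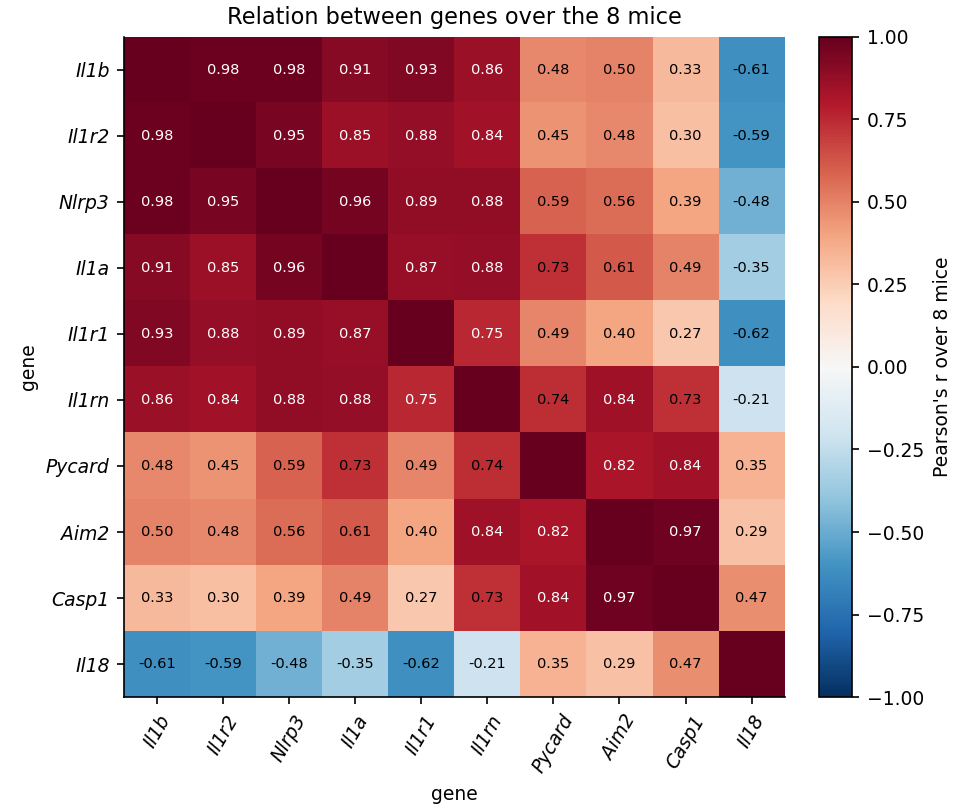
Pearson's r between the log2 values of each pair of the 10 genes over the 8 mice (both axes list the genes, colour from −1 to 1). *Il1b*, *Il1r2*, *Nlrp3*, *Il1a*, *Il1r1* and *Il1rn* form a block with r of 0.75 to 0.98, *Pycard*, *Aim2* and *Casp1* another with r of 0.82 to 0.97, and *Il18* has r below 0 with the first block.

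The genes most like *Il1b* over the 8 mice, out of 9207 brighter genes and as a description, were *Gadd45b* (r = 0.98), a stress-induced gene, *Zfp36* (r = 0.98), which encodes an RNA-binding protein that limits cytokine messages, *Junb* (r = 0.97), an AP-1 subunit, *Hdc* (r = 0.97), which makes histamine and is also among the mast cell markers, and *Snord14e* (r = 0.97), a small nucleolar RNA. *Gadd45b* lay at 10.25 in *Sucnr1*-/- replicate 1 and 9.85 in WT replicate 1, with 8.65 to 8.89 in the other *Sucnr1*-/- mice and 8.85 to 9.44 in the other WT mice. Those most like *Pycard* were *Vav3* (r = 0.97), *Sms* (r = 0.97), *H3f3b* (r = 0.96), *Pinx1* (r = 0.96) and *Ikbke* (r = 0.96), the last a kinase of the innate immune response. *Vav3* lay at 7.93 to 8.23 in *Sucnr1*-/- mice and 8.30 to 8.56 in WT mice, apart like *Pycard*. It was picked for its r with *Pycard*, so this follows in part from the choice.

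Of 12 measured neutrophil markers, 7 had their 2 highest values in the replicate 1 mice, as *Il1b* and *Il1r2* did, with r of 0.82 to 0.99 to *Il1b* (*S100a8*, *S100a9*, *Cxcr2*, *Csf3r*, *Retnlg*, *Mmp8* and *Mmp9*). These 7 were grouped by that pattern, which *Il1b* shares, so a high r follows in part from the grouping. The other 5, *Mpo*, *Elane*, *Ltf*, *Camp* and *Ngp*, had r of −0.27 to 0.29. *S100a8*, an abundant granulocyte protein, was at 9.67, 5.69, 6.63 and 5.79 in *Sucnr1*-/- mice and at 8.17, 6.05, 5.98 and 6.84 in WT mice. *Cxcr2*, a chemokine receptor of neutrophils, was at 9.30, 4.62, 5.74 and 4.86 in *Sucnr1*-/- mice and at 7.58, 5.35, 4.76 and 5.80 in WT mice. Replicate 1 was again highest in both genotypes. Over all 12 markers, 8 with a higher and 4 with a lower mean in *Sucnr1*-/- mice, the mean level was 5.53 to 7.35 in *Sucnr1*-/- mice and 5.52 to 6.77 in WT mice. *Elane*, a granule protease, was at 7.59 to 7.94 in *Sucnr1*-/- mice and 7.45 to 7.88 in WT mice, and lowest in WT replicate 1. *Mpo*, made in granulocyte precursors, was at 4.89 to 4.97 in *Sucnr1*-/- mice and 4.83 to 5.01 in WT mice. The values hold no background signal, so whether so dim a gene was detected is not known. Immediate early genes, which respond within minutes to handling and other stimuli, were likewise highest in replicate 1, with a mean level over 9 genes of 9.12 in *Sucnr1*-/- replicate 1 and 9.35 in WT replicate 1, against 8.20 to 8.35 in the other *Sucnr1*-/- mice and 8.47 to 8.62 in the other WT mice. The part of these cells and of this response in the cytokine values was not tested.

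Macrophage markers varied in how far they followed *Casp1*, with r from −0.69 for *Mertk* to 0.96 for *Cd68* over the 8 mice. *Cd68*, a lysosomal protein of macrophages, lay at 11.31, 11.08, 11.29 and 11.13 in *Sucnr1*-/- mice and at 11.95, 11.33, 11.95 and 11.53 in WT mice, with WT replicates 1 and 3 highest as for *Casp1*. *Adgre1*, a surface receptor that marks macrophages, lay at 9.87, 9.59, 9.76 and 9.94 in *Sucnr1*-/- mice and at 10.30, 10.10, 10.70 and 10.07 in WT mice, without overlap. *Mertk* went the other way, at 10.01, 10.29, 10.28 and 10.15 in *Sucnr1*-/- mice and 9.44, 9.66, 9.93 and 9.94 in WT mice, without overlap. For *Cd163* and *Cx3cr1* r with *Casp1* was −0.04 and −0.07. Of 11 macrophage markers 9 had a lower and 2 a higher mean in *Sucnr1*-/- mice, with a mean level of 9.75 to 10.07 in *Sucnr1*-/- mice and 10.05 to 10.44 in WT mice. At an unadjusted p under 0.05, 5 were lower and 1 higher, where 3.36% of all genes were lower and 3.46% higher. Apart from the neutrophil markers, 8 of 12 with a higher mean (median 0.09), the other leucocyte lists stood the same way. B cell markers (5 of 5 with a lower mean, median −0.96) were at 5.79 to 7.28 in *Sucnr1*-/- mice and 6.52 to 8.85 in WT mice. Mast cell markers (7 of 7, median −0.36) were at 6.56 to 6.98 in *Sucnr1*-/- mice and 7.04 to 7.24 in WT mice. T cell markers (5 of 5, median −0.395) were at 5.84 to 7.08 in *Sucnr1*-/- mice and 6.05 to 7.11 in WT mice. Dendritic cell markers (6 of 7, median −0.31) were at 7.03 to 7.48 in *Sucnr1*-/- mice and 7.23 to 7.93 in WT mice. The part of these cells in the adaptor and protease values was not tested. In whole fat, fewer cells of a type and less RNA per cell cannot be told apart.

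The other genes of the pathway were described from lists by role, and in either direction 0 reached an adjusted p under 0.05 by limma. Of 17 measured inflammasome genes 15 had a lower and 2 a higher mean in *Sucnr1*-/- mice (median −0.12). At the unadjusted threshold of 0.05, where 3.36% of all genes were lower and 3.46% higher, the count was 2 lower and 0 higher. These were *Naip2*, a receptor for bacterial rod proteins, at −0.35 (SE 0.11) and *Nlrp1a* at −0.23 (SE 0.09). The next by p were *Panx1*, a channel that releases ATP, at −0.19 (SE 0.09) and *Pstpip1*, which binds pyrin, at −0.38 (SE 0.18). The *Naip* and *Nlrp1* genes have close copies that may share probes. *Gsdmd*, which forms the pore through which mature IL-1β leaves the cell, was at 7.53 ± 0.08 in *Sucnr1*-/- mice and 7.65 ± 0.13 in WT mice (SD, n = 4 each), and was named after its values were seen.

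Receptors and signalling genes had medians nearer to 0. Of 7 other receptors of the family 5 had a lower mean (median −0.08), with *Il1rap*, the partner chain of IL1R1, at −0.38 (SE 0.21), *Il1rapl2* at 0.09 (SE 0.07), *Il1rl2*, the receptor for IL-36, at −0.30 (SE 0.27) and *Sigirr*, an inhibitory receptor, at −0.08 (SE 0.09). Of 16 genes of signalling below the receptor 11 had a lower mean (median −0.04), with *Traf6*, a ubiquitin ligase, at −0.15 (SE 0.07), the inhibitors *Tnfaip3* at −0.34 (SE 0.17) and *Irak3* at −0.19 (SE 0.11), and *Peli2* at 0.18 (SE 0.13). Among the 3 measured of 7 listed other ligands and binding proteins, *Il33*, an alarmin of stromal cells, was at −0.20 (SE 0.52), *Il1f10* at 0.03 (SE 0.06) and *Il18bp*, which neutralises IL-18, at 0.02 (SE 0.19).

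Genes that IL-1 is known to induce had a median difference of −0.54, and 15 of 17 had a lower mean. By smallest p these were *Mmp3*, a matrix protease, at −0.39 (SE 0.21), *Nfkbiz*, a cofactor of NF-κB, at −0.33 (SE 0.18), *Saa3*, an acute-phase protein of fat, at −1.36 (SE 0.77) and the adhesion molecule *Vcam1* at −0.23 (SE 0.13), and 0 had an unadjusted p under 0.05. *Saa3* lay at 10.46, 6.60, 7.40 and 8.08 in *Sucnr1*-/- mice and at 10.04, 10.16, 8.42 and 9.37 in WT mice. Apart from replicate 1, the *Sucnr1*-/- mice lay below every WT mouse, with no share over all genes computed for such a split. The mean level of the target genes was 8.15, 6.87, 7.15 and 6.53 in *Sucnr1*-/- mice and 8.77, 7.60, 6.78 and 7.80 in WT mice, with replicate 1 highest in both genotypes and WT replicate 3 low, as for *Il1b*.

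**Figure D4:**
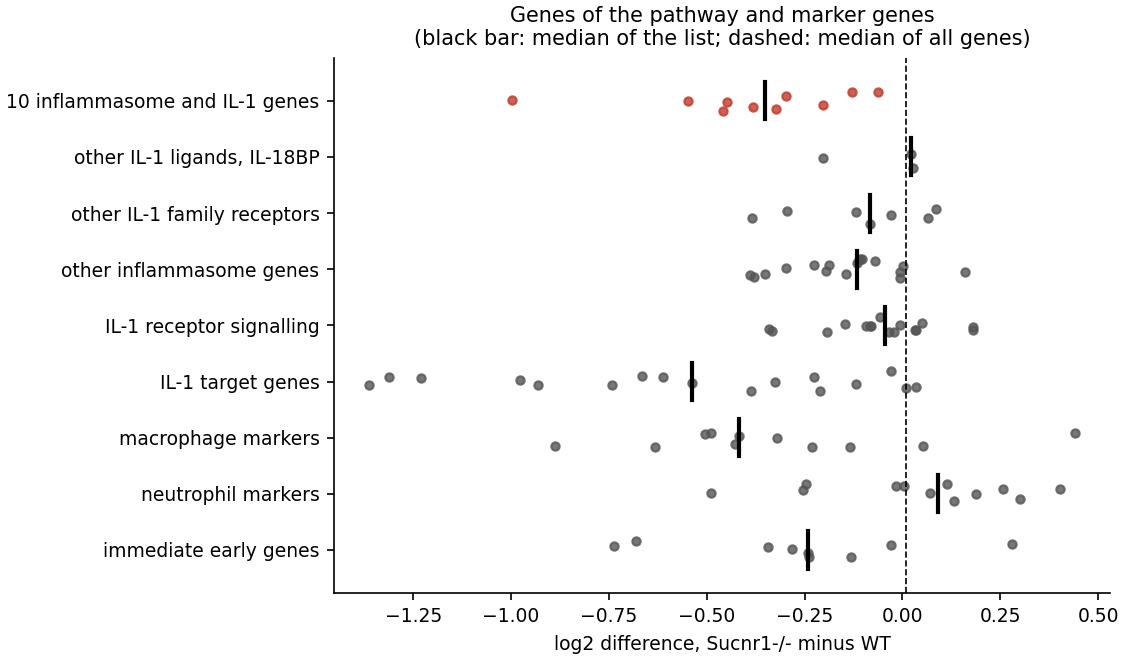
Log2 difference between *Sucnr1*-/- and WT mice (horizontal axis) for each measured gene of the lists (rows), with the 10 inflammasome and interleukin 1 genes in red, other genes in grey, the list medians as black bars and the median of all genes (0.01) dashed. The median is −0.35 for the 10 genes, −0.54 for the target genes, −0.42 for the macrophage markers and 0.09 for the neutrophil markers.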

How the data were processed

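RNA of epididymal fat was hybridised to Affymetrix Mouse Gene 1.1 ST arrays, 1 per mouse, and the authors deposited log2 expression values made with RMA, for which no version or genome build is named in the labels or the paper. RMA adjusts background, equalises the arrays and summarises probes, so dim values are compressed. Scan dates were not at hand, and batches could not be looked for. The medians of the 8 arrays ran from 6.28 to 6.36, no arrays were identical, and 4 arrays per genotype limit the precision.

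Of 35556 probe sets, 21218 had exactly 1 gene symbol in the platform annotation, and 21185 of these matched RefSeq by Entrez ID. The probe set of highest mean stood for a gene, which left 18820 genes, none removed as dim. Some listed genes are not analysed here. Genotypes were compared with limma 3.58.1 under R 4.3.3, using lmFit and eBayes (2.66 prior degrees of freedom), and p-values were adjusted across all genes by Benjamini-Hochberg (threshold 0.05), beside an exact permutation over the 70 ways to choose 4 of 8 mice. The procedure was tested on simulated data.

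All 10 genes and *Sucnr1* are named, with up to 4 genes of each pathway list by smallest p, and the 5 genes of largest r with *Il1b* and with *Pycard* among genes brighter than the median, without predicted, receptor segment and olfactory genes. Marker genes were chosen to describe the cells. The members and lists were chosen with earlier results of these data known. The comparison was repeated with the replicate number as a block, with weighted arrays, after quantile normalization or centring of arrays on the median, with probe sets averaged, without the dimmest 40% of genes, by the methods' t-test, with a prior that followed mean intensity, and without each mouse in turn or replicate 1 of both genotypes. Figures used matplotlib 3.10.9 in Python 3.11.15.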

Additional observations from a re-analysis of the deposited data

Results flagged for a closer look

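In 3 of 22 groups of 4 mice examined, a mouse stood so far from the others that its gap passed Dixon's 95% critical value for the share of the group's range, where chance gives about 1 such group in 20. *Sucnr1*-/- replicate 1 was at 6.94 for *Il1a* against 4.59 to 4.74 in the other *Sucnr1*-/- mice. WT replicate 1 was at 9.64 for *Il1rn* against 7.83 to 8.08 in the other WT mice. WT replicate 1 was at 8.20 for *Pycard* against 7.55 to 7.64 in the other WT mice.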

How the results depend on the processing

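Under the 17 alternatives 0 genes passed over all genes each time, at unadjusted p under 0.05 between 808 genes (without *Sucnr1*-/- replicate 2) and 1905 (with the replicate block) against 1284, and 1247 by the methods' t-test, of which 0 passed after adjustment. There were 330 lower and 1352 higher with arrays centred on their median, and 465 lower and 838 higher after quantile normalization. Of 168 values for the 10 genes 155 kept their direction and 13 turned, and none passed (lowest limma adjusted p = 0.305, *Il1rn* with the replicate block). *Il1a* and *Il1r2* have no value with the genes of lowest mean left out. *Il1b* ran from −1.27 to 0.34 over the mice left out in turn, and turned to 0.04 without *Sucnr1*-/- replicate 2, 0.17 without *Sucnr1*-/- replicate 4 and 0.34 without WT replicate 1. *Il1r1* ran from −0.53 to 0.21 and was 0.06 with array weights. *Il1r2* ran from −0.73 to 0.30. *Pycard* ran from −0.53 to −0.31, *Casp1* from −0.58 to −0.30 and *Aim2* from −0.50 to −0.25. The cause was not tested. Of the 17 alternatives, an unadjusted p under 0.05 was found in 17 for *Pycard* and in 11 for *Casp1*. Members with a lower mean numbered 7 to 10, and 9 with array weights. With replicate 1 of both genotypes left out all 10 were lower, 4 at an unadjusted p under 0.05 (*Il1a*, *Il1rn*, *Nlrp3* and *Pycard*), where 4.14% of all genes were lower. For *Il1a*, *Il1rn* and *Nlrp3* the mice left out held the 2 highest values, which narrows the spread, so these calls are no separate support. Of 45 relations 18 passed, 19 with genotype means subtracted (14 of them shared) and 0 with 2 mice left out, where 6 mice can hardly reach the threshold over 45 pairs. The p-values with genotype means subtracted are approximate. Same-numbered mice correlated in their deviations by 0.45, 0.14, 0.11 and 0.015 (number 1 to number 4), so the number is not taken as a pairing. With the replicate block 5 genes had an unadjusted p under 0.05 (*Il1a*, *Il1rn*, *Aim2*, *Pycard* and *Casp1*) against 2. The share of all genes that were lower at this threshold rose as well, to 5.82% against 3.36%. *Sucnr1*-/- replicates 1 and 3 and WT replicates 1 and 2 correlated best with their own number, the other 4 mice with another.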
